A study of Mus musculus with 8 samples.

Results

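The genes described here encode cornified envelope and filaggrin-like proteins of the epidermis. They were chosen by symbol, as every gene in the deposited table whose symbol begins with Lce and a digit, together with Flg, Flg2, Hrnr, Rptn, Tchh, Tchhl1, Crnn, Lor, Ivl, Crct1 and Kprp. Lelp1, also part of the rule, had no row in the table and was not analysed here. This gave 32 of 18901 genes, of which 21 belong to the late cornified envelope family, 7 are S100-fused genes and 4 encode other envelope or cornified layer proteins. Expression was measured by RNA-seq in cheek skin that had received an intradermal injection of 10 µg of BNP, a natriuretic peptide that evokes scratching, in 4 TBX20fl/fl;K14-Cre mice (knockout mice) and 4 TBX20fl/fl mice (control mice). All mice were 7 weeks old and female, both groups carried the floxed TBX20 alleles, and skin was taken 5 h after a 30 min recording of behaviour. Cre recombinase in the knockout mice was driven by the K14 promoter, which is active in basal keratinocytes and in the hair follicle, so that the deletion was limited to the keratinocyte lineage while the RNA came from whole skin. The cheeks had been shaved the day before the injection, and no skin without BNP was part of this comparison.

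As a keratinocyte leaves the basal layer and dies at the surface, it replaces its membrane with the cornified envelope, a shell of proteins that transglutaminases crosslink beneath a lipid coat. Loricrin and involucrin are classical components of this shell, and the late cornified envelope proteins are added near the end of the process. Filaggrin and its relatives carry an S100-type calcium-binding domain at the start of a long repeat-rich protein, and filaggrin bundles keratin filaments before it is broken down to the amino acids that hold water in the surface layer. Most of these genes lie side by side in the epidermal differentiation complex. In the deposited GRCm38 coordinates, the 32 genes ran from Lor to Tchhl1 on chromosome 3, between positions 92080271 and 93471980, a stretch of 1392 kb. This stretch held 18 further genes of the table, of which 14 were Sprr genes, which encode small proline-rich envelope proteins.

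The Lce genes are close duplicates of each other, and this bears on how 50-base reads can be assigned to them. Among the 13 Lce1 genes other than Lce1m, 9.12% to 27.1% of the 50-base stretches of the annotated transcripts also occurred in another gene, and among the 6 Lce3 genes this share was 12.1% to 49.3%. Lce1m, Lce6a, Lor, Crct1, Kprp and all S100-fused genes except Flg shared none, while Flg shared 0.0803% and Ivl shared 0.482%. The stretch shown next lies in the coding exon of Lce1a1 at chr3:92646822-92646871 on the minus strand (GRCm38, GENCODE transcripts). It is shown because exactly the same letters occurred in 11 genes, 10 of which were Lce1 genes, so that a read of this sequence cannot be placed in a particular gene.
Lce1a1 shared stretch: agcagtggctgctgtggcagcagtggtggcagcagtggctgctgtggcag
Levels of single Lce1 and Lce3 genes are therefore uncertain to the extent that the authors' counting divided such reads, whereas sums over a subfamily are less affected. The interval deposited for Hrnr also covered Rptn and Tchh, which lie on the same strand, so that reads from these genes could overlap in the count as well.

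The sequence just before the start of these genes was compared as well. RefSeq promoters (250 bases before to 50 bases after the start, GRCm38.p6) were matched for 29 of the 32 genes, all except Lce1f, Kprp and Crct1. The letters ATAAAA, part of a TATA-like element, began between 35 and 20 bases before the start on the coding strand in 21 of the 29 (72.4%). The share was 1.68% over all 18621 promoters matched to genes of the deposited table. These letters were chosen after the sequences had been read. The 80 bases before the start are printed for Lce1 and Lce3 genes and for the S100-fused genes Tchhl1 and Crnn, because genes of these 3 sets followed different patterns across the mice (described further on). Genes with the element were chosen for printing, and it is given in capitals. The matched genes of these sets without the letters in that interval were Lce1a1, Lce3a and the S100-fused genes Flg, Flg2, Rptn and Tchh.
Lce1a2 (chr3:92670316-92670395, minus): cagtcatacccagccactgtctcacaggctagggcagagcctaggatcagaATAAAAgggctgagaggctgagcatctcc
Lce1e (chr3:92709075-92709154, minus): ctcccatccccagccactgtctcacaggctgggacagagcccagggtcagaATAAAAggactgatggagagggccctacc
Lce1h (chr3:92765066-92765145, minus): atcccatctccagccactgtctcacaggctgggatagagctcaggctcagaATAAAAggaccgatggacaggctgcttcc
Lce3c (chr3:92944406-92944485, plus): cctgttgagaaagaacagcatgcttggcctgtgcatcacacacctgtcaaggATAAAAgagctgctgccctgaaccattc
Lce3d (chr3:92957310-92957389, plus): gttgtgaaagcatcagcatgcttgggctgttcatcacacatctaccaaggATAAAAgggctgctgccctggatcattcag
Lce3e (chr3:92966981-92967060, plus): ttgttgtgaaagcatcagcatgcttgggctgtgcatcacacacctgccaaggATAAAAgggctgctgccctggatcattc
Lce3f (chr3:92992137-92992216, plus): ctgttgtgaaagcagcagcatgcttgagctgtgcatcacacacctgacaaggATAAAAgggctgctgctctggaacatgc
Tchhl1 (chr3:93468674-93468753, plus): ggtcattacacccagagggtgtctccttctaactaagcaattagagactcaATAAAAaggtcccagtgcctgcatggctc
Crnn (chr3:93144709-93144788, plus): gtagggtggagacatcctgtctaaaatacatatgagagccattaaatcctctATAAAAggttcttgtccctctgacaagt
Between promoters, identity over the 250 bases before the start had a median of 63.5% for pairs of Lce1 genes and 59.1% for pairs of Lce3 genes. The median was 52.8% for an Lce1 gene with an Lce3 gene. It was 51.4% for an Lce1 gene with a gene of neither subfamily, 50.8% for an Lce3 gene with such a gene, and 51.8% between such genes. The AP-1 motif (TGANTCA, which reads the same on both strands) occurred in 7 of the 29 promoters (24.1%) and in 6.32% of all promoters. These 7 were Lor, Ivl, Crnn, Flg2, Flg, Rptn and Tchhl1, and the window of no Lce gene held these letters. Other motifs were searched on both strands of the same windows. The GATA-factor motif, searched as AGATAA, was in 17.2% of the 29 and 8.29% of all promoters, C/EBP (TTGCNNAA) in 13.8% and 9.73%, and grainyhead (AACNGGTT) in 3.45% and 1.99%. KLF (CCACCC) was in 17.2% and 36.3%, and the CCAAT box, searched as those letters, in 13.8% and 37.6%. The whole TATA box (TATAAA), which overlaps the TATA-like letters given earlier, was in 34.5% and 10.1%. The letters say nothing about whether a factor was bound.

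The total of the deposited counts ranged from 19260856 to 19880654 in knockout mice and from 16056282 to 19617762 in control mice. Tbx20 had 0 to 2 counts in knockout mice and 0 to 3 counts in control mice, and at this depth whole skin could not show its deletion. The libraries of 3 mice stood apart in genes described here. Control mouse 2 had the lowest total, the lowest TMM factor (0.735, others 1.01 to 1.08) and a median Spearman correlation of 0.919 with the other libraries (0.974 to 0.990 for the others). Short transcripts were over-represented in it, and a trend of level with transcript length was therefore removed from every mouse as an alternative. Control mouse 4 had high levels of keratins of wounded epidermis, and knockout mouse 2 had high levels of inner root sheath keratins. The number of a mouse is its replicate number in the labels.

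In the quasi-likelihood test of edgeR, with p-values adjusted by Benjamini-Hochberg, 0 of 17124 genes tested (0%) had an adjusted p under 0.05, and the smallest adjusted p was 0.498. At an unadjusted p under 0.05, 1012 genes were lower (5.91% of those tested) and 419 were higher (2.45%) in knockout mice. DESeq2 called 10 genes at an adjusted p under 0.05, of which 0 were among the 32, although Lce3b, Lce3e and Lce3f were given no adjusted p by DESeq2. All 32 genes passed the filter on low counts. Of these, 9 were lower at an unadjusted p under 0.05 (Lce1e, Lce1f, Lce1g, Lce1h, Lce1j, Lce1k, Lce1l, Lce3b and Lce3e) and 2 were higher (Flg and Tchh). With the replicate number as a block these counts were 5 lower (Lce1e, Lce1g, Lce1h, Lce1j and Lce1k) and 4 higher (Flg, Tchh, Tchhl1 and Crnn), where the background was 6.54% and 3.52%. With the length trend removed they were 4 lower (Lce1j, Lce3b, Hrnr and Rptn) and 1 higher (Tchhl1), where the background was 5.24% and 3.41%. The median log2 fold change of the 32 genes was -0.64, against 0.026 over all genes tested, and it was -0.073 with the length trend removed, against 0.018. FPKM values did not overlap between groups for 4 genes that were lower (1.87% of all genes tested) and for 1 that was higher (5.19%). The differences between the groups that follow did not pass the threshold after adjustment in edgeR's test, and the folds are given as estimates with their errors.

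**Figure D1:**
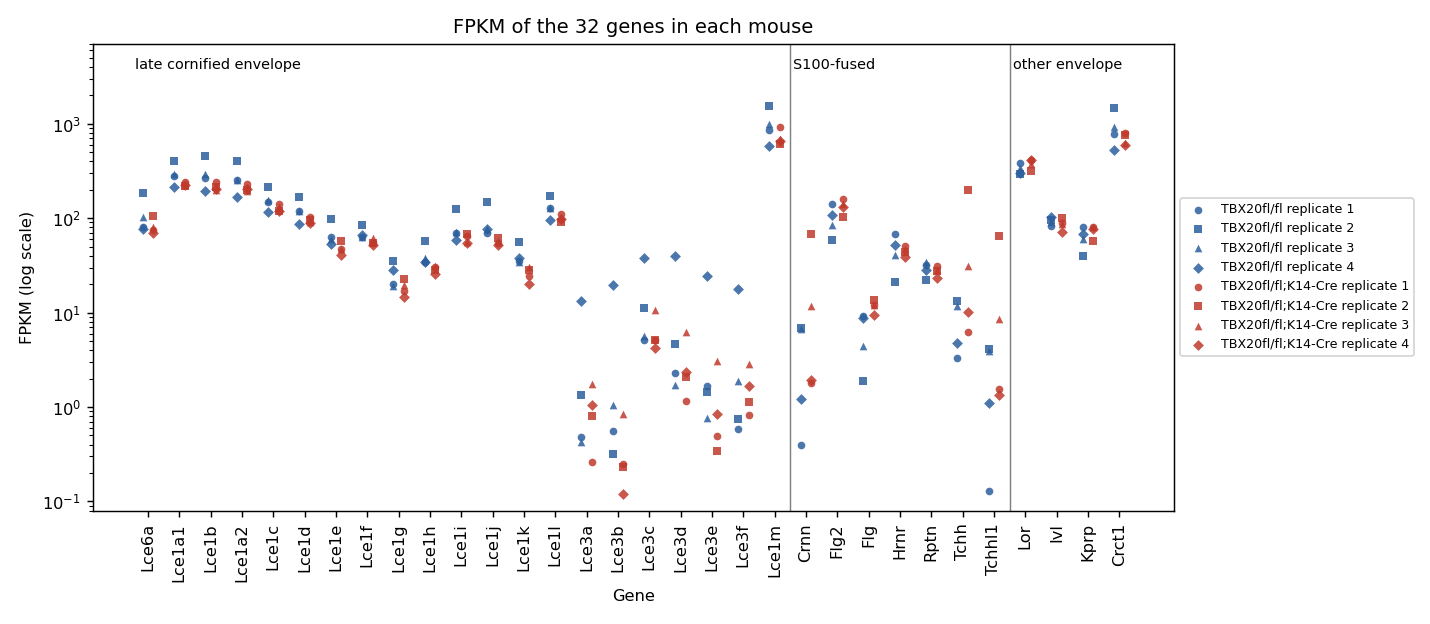
FPKM (log scale) of each of the 32 genes in each mouse, control mice in blue and knockout mice in red, with the mouse number given by the shape of the point. Control mouse 2 (blue squares) is highest in the Lce1 genes, control mouse 4 (blue diamonds) is highest in the 6 Lce3 genes, and knockout mouse 2 (red squares) is highest in Tchh, Tchhl1 and Crnn.

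The late cornified envelope family differed widely in level. Mean FPKM, which is scaled by transcript length and can be compared between genes, ran from 22.0 (Lce1g) to 857 (Lce1m) in the Lce1 subfamily, was 97.0 for Lce6a, and ran from 2.43 (Lce3a) to 10.5 (Lce3c) in the Lce3 subfamily. Lce1m ranked 122 among the 17124 genes by mean FPKM. Along the chromosome, Lce1a1 to Lce1l lay within 205 kb, and Lce3a to Lce3f were consecutive genes within 68 kb. Lce1m stood apart from the other Lce1 genes, next to Crct1, and the levels of these neighbours were alike (857 and 809 FPKM).

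**Figure D2:**
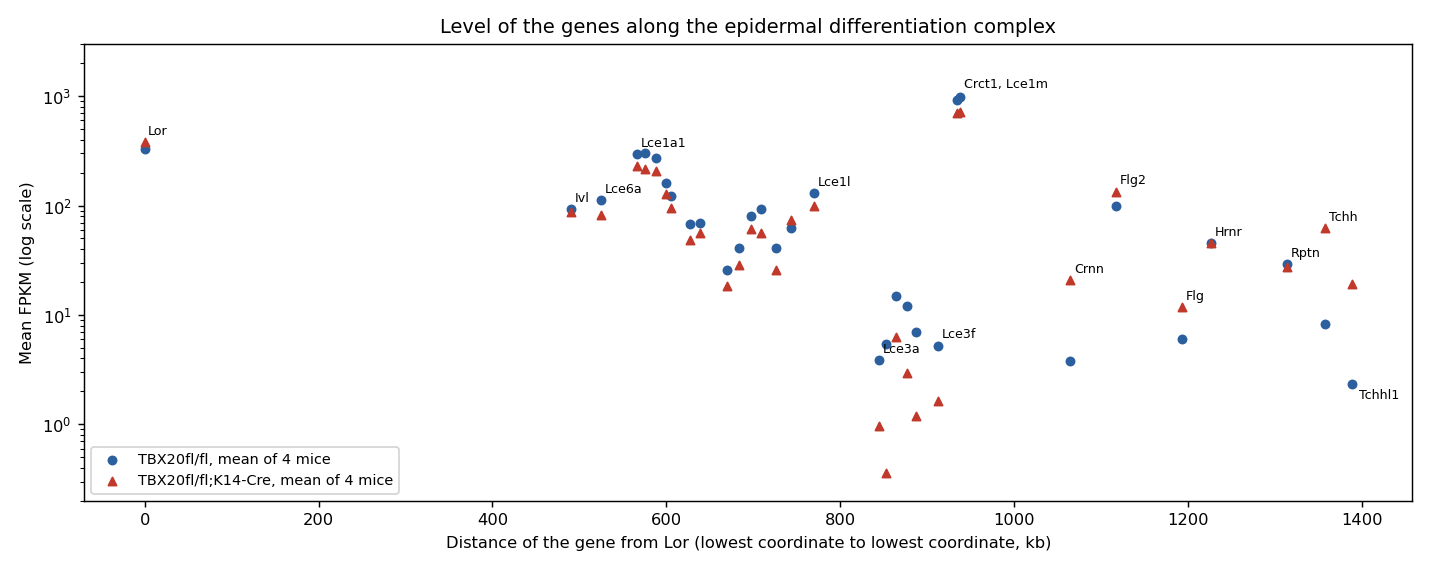
Mean FPKM (log scale) of each gene against its distance from Lor in kb, with control mice as blue circles and knockout mice as red triangles (4 mice each). The Lce1 genes lie above 18 FPKM in both groups, the Lce3 genes lie below 15 FPKM between them and the Crct1 and Lce1m pair, and the S100-fused genes follow at the far end.

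In all 14 Lce1 genes the estimate was lower in knockout mice, with log2 fold changes of -0.53 to -0.97. The summed FPKM of the 14 genes was 2288, 1877, 1938 and 1855 in knockout mice 1 to 4 and 2406, 3952, 2607 and 1806 in control mice 1 to 4. The groups overlapped, since control mouse 4 lay below every knockout mouse and control mouse 2 lay far above all others. The means were 1989 ± 202 (SD, n = 4) in knockout mice and 2692 ± 906 (SD, n = 4) in control mice. Each of the 14 genes was highest in control mouse 2 on the log2 CPM scale, as were 34.9% of all genes tested. With the length trend removed, 1 of the 14 was highest in that mouse, against 30.2% of all genes.

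Lce1m, the most abundant of them, had 927, 618, 692 and 658 FPKM in knockout mice and 853, 1532, 1000 and 576 FPKM in control mice, with control mouse 4 the lowest of all. Its log2 fold change was -0.70 (SE 0.38, edgeR adjusted p = 0.498). Lce1a1 had 243, 219, 225 and 226 FPKM in knockout mice against 278, 400, 295 and 215 FPKM in control mice, and control mouse 4 alone lay below every knockout mouse. Lce1b had 241, 216, 200 and 202 FPKM in knockout mice and 269, 454, 292 and 195 FPKM in control mice, where control mouse 4 was again the lowest of the 8. The log2 fold changes were -0.61 for Lce1a1 and -0.74 for Lce1b.

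The groups did not overlap for Lce1f, Lce1h, Lce1j and Lce1k. Lce1j had 55.0, 61.2, 57.7 and 51.8 FPKM in knockout mice and 69.8, 148, 76.2 and 75.9 FPKM in control mice. This was the largest difference among the Lce1 genes, a log2 fold change of -0.97 (SE 0.34, edgeR adjusted p = 0.498). Lce1k had 24.2, 27.9, 30.7 and 19.9 FPKM in knockout mice and 35.6, 56.5, 34.6 and 38.0 FPKM in control mice, a log2 fold change of -0.90. For both genes the other control mice also lay above every knockout mouse, but without control mouse 2 the log2 fold changes were -0.44 for Lce1j and -0.53 for Lce1k. Lce1h had 30.2, 28.3, 30.9 and 25.7 FPKM in knockout mice and 34.7, 57.2, 37.9 and 34.7 FPKM in control mice. Lce1f had 54.3, 54.9, 62.0 and 51.5 FPKM in knockout mice and 62.7, 84.8, 63.7 and 66.9 FPKM in control mice, where the gap between the highest knockout and the lowest control mouse was narrow.

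Among the remaining Lce1 genes at an unadjusted p under 0.05 the groups overlapped. Lce1e had 46.9, 57.7, 47.7 and 41.2 FPKM in knockout mice and 62.7, 98.6, 59.7 and 52.7 FPKM in control mice. For Lce1g the values were 16.9, 22.5, 19.5 and 14.6 FPKM in knockout mice and 20.0, 34.8, 19.3 and 28.0 FPKM in control mice, and for Lce1l they were 110, 91.0, 100 and 98.4 FPKM against 128, 170, 129 and 95.0 FPKM. In each of these genes a single control mouse or a pair of them fell within the knockout range. The other Lce1 genes had log2 fold changes of -0.64 (Lce1a2), -0.54 (Lce1c), -0.61 (Lce1d) and -0.66 (Lce1i). Lce6a, the gene next to them, had a log2 fold change of -0.65 and was also highest in control mouse 2, at 186 FPKM against 69.5 to 105 in the other mice. Without that mouse its log2 fold change was -0.085.

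The Lce1 transcripts are short, 598 to 873 bases as implied by the deposited counts and FPKM values. The level of transcripts of that length across all genes, relative to the mean of the mice, was 1.19 higher on the log2 scale in control mouse 2, and it lay between -0.37 and 0.14 in the other mice. In the same mouse the Lce1 genes lay 0.99 to 1.80 above the median of the other mice on the log2 CPM scale. With the trend removed, the median log2 fold change of the 14 genes went from -0.68 to -0.040 (range -0.29 to 0.068), and without control mouse 2 it was -0.27 (range -0.53 to -0.17). Lce1j and Lce1k kept the lowest estimates with the trend removed, at -0.29 (SE 0.10, edgeR adjusted p = 0.533) and -0.29 (SE 0.15, edgeR adjusted p = 0.533).

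**Figure D3:**
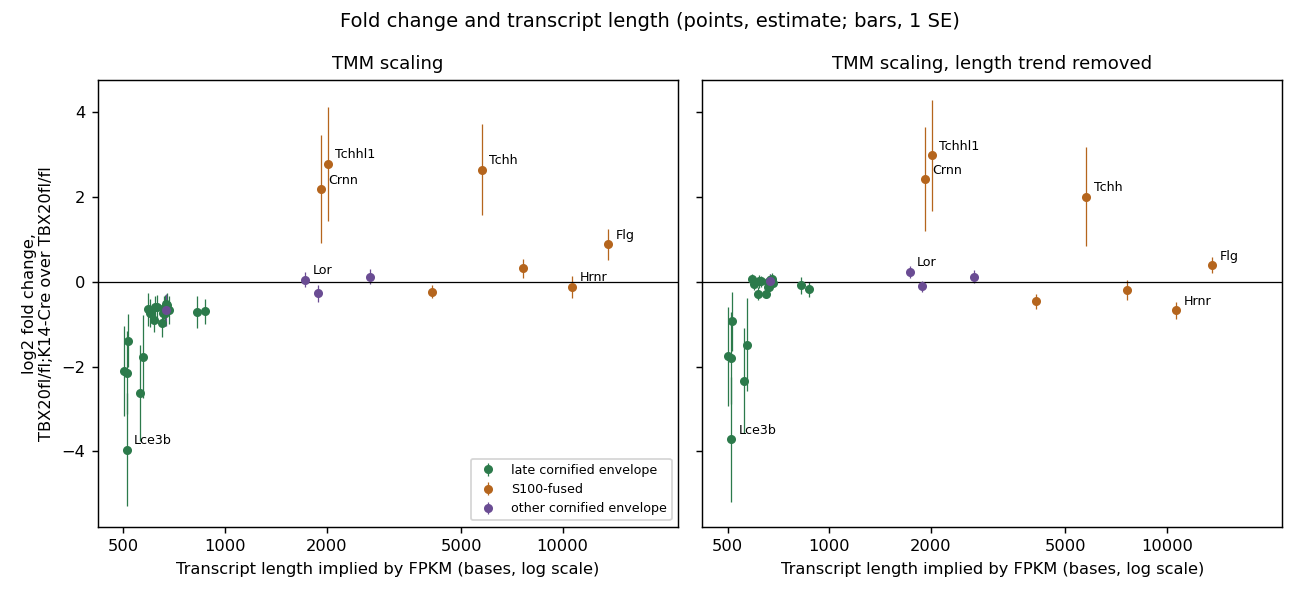
The log2 fold change of each gene (knockout over control mice, bars of 1 SE from edgeR) against the transcript length implied by FPKM in bases (log scale), with TMM scaling on the left and with the length trend of each mouse removed on the right. The Lce1 genes lie between -0.97 and -0.53 on the left and between -0.29 and 0.068 on the right. Crct1 moves from -0.66 to 0.018, Flg moves from 0.88 to 0.39, and the Lce3 genes, Tchh, Tchhl1 and Crnn stay far from 0 with wide errors.

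The Lce3 subfamily, whose human counterparts are known for their induction after barrier injury and in psoriatic skin, was low in every mouse but control mouse 4. The summed FPKM of the 6 genes was 8.05, 9.71, 25.3 and 10.3 in knockout mice and 10.7, 19.6, 11.6 and 152 in control mice. All 6 genes were highest in control mouse 4, as were 7.52% of all genes tested, at 2.80 to 4.76 above the median of the other mice on the log2 CPM scale. Lce3d had 1.15, 2.10, 6.21 and 2.37 FPKM in knockout mice and 2.28, 4.66, 1.71 and 40.0 FPKM in control mice. Lce3b had 0.25, 0.23, 0.85 and 0.12 FPKM in knockout mice and 0.56, 0.32, 1.04 and 19.6 FPKM in control mice, which rested on 1 to 10 counts in all mice but control mouse 4, with 192. Lce3e had 0.49, 0.34, 3.08 and 0.85 FPKM in knockout mice and 1.68, 1.44, 0.77 and 24.1 FPKM in control mice. Outside control mouse 4 the groups overlapped in all 3 genes, and knockout mouse 3 was the next highest of them in Lce3d and Lce3e.

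The log2 fold changes of the Lce3 genes ran from -1.39 (Lce3c) to -3.96 (Lce3b, SE 1.34, edgeR adjusted p = 0.498), with -2.11 for Lce3a, -2.14 for Lce3d, -2.62 for Lce3e and -1.76 for Lce3f. Without control mouse 4 they ran from -1.09 (Lce3b) to 0.39 (Lce3f), with a median of -0.31, and 0 of the 6 had an unadjusted p under 0.05 in edgeR's test. With the replicate block the median of the 6 went from -2.12 to -1.34 (range -2.81 to -0.78), and again 0 had an unadjusted p under 0.05, against 2 without it. With the length trend removed the median was -1.78, and 1 of the 6 had an unadjusted p under 0.05. With the block and the trend removal together it was -0.725 (range -2.40 to -0.26). Keratins of wounded epidermis were high in the same mouse. Krt6a, a keratin that appears in keratinocytes at wound edges, had 327 FPKM in control mouse 4 and 36.7 to 70.6 FPKM in the others, Krt6b had 241 FPKM against 3.21 to 15.2, and Krt16 had 229 FPKM against 7.93 to 40.1. Krt17, the remaining gene of this marker list, had 241 FPKM in control mouse 4 and was highest in knockout mouse 2, at 405 FPKM. The summed FPKM of the 4 keratins was 241 to 491 in knockout mice and 285 to 1038 in control mice, and 3 of them were lower in knockout mice at an unadjusted p under 0.05, or 1 with the length trend removed. Sprr1b, an envelope precursor of the same chromosomal region chosen after its values were seen, had 131 FPKM in control mouse 4 and 4.79 to 23.6 FPKM in the others. Whether the state of the skin in this mouse accounts for the Lce3 difference was not tested.

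**Figure D4:**
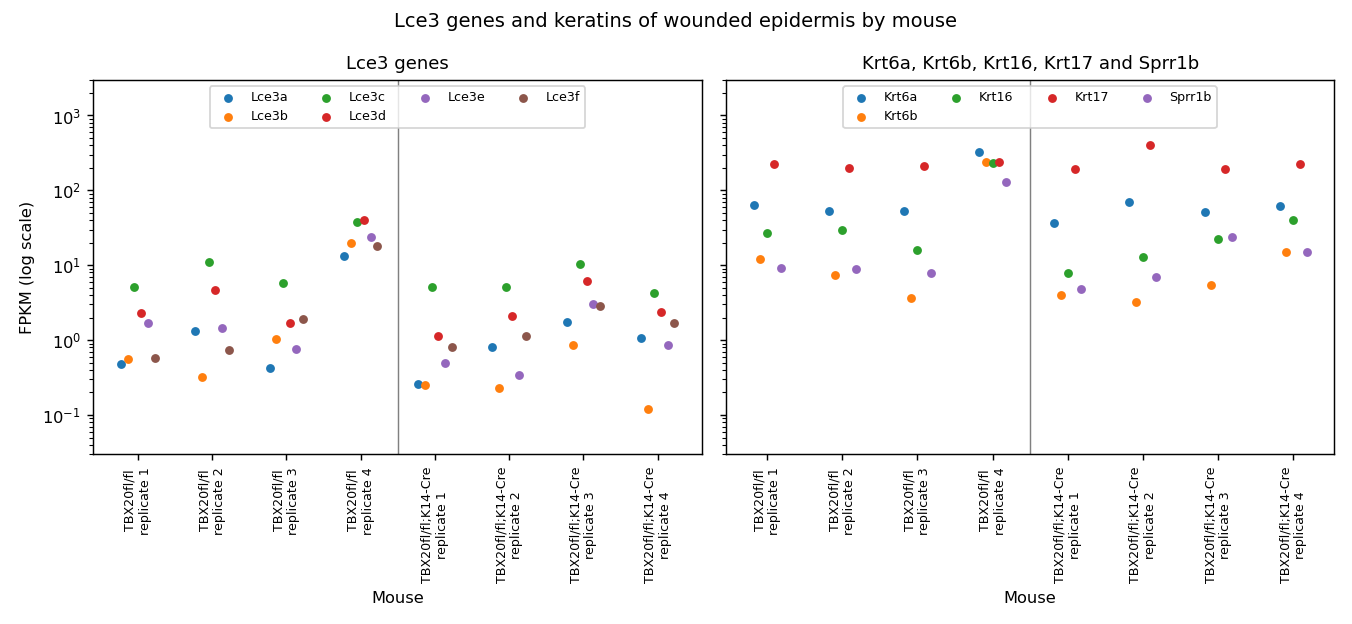
FPKM (log scale) in each mouse of the 6 Lce3 genes on the left and of Krt6a, Krt6b, Krt16, Krt17 and Sprr1b on the right, with a point for each gene and a line between control and knockout mice. In control mouse 4 the Lce3 genes reach 13.3 to 40.0 FPKM and Krt6a, Krt6b and Krt16 reach 229 to 327 FPKM, above all other mice.

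Across the 8 mice, levels were compared within each subfamily and between them. Pearson correlations of log2 CPM had a median of 0.95 over the 91 pairs of Lce1 genes and 0.90 over the 15 pairs of Lce3 genes, but 0.00 (range -0.46 to 0.67) over the 84 pairs of an Lce1 with an Lce3 gene. The median over all pairs of genes tested was 0.00 as well. The mice share depth and library quality, and genes of a subfamily share reads, so these values are descriptions. With the length trend removed the Lce1 median was 0.44, the Lce3 median was 0.92, and the median between the subfamilies was -0.25 (range -0.81 to 0.79). Without control mouse 4 the Lce3 median was 0.51.

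Among the S100-fused genes, trichohyalin (Tchh), trichohyalin-like 1 (Tchhl1) and cornulin (Crnn) were high in knockout mouse 2. Trichohyalin hardens the inner root sheath and medulla of the hair follicle, and cornulin is known from the upper layers of stratified epithelia such as the oesophagus. Tchh had 6.23, 201, 31.2 and 10.1 FPKM in knockout mice and 3.34, 13.2, 11.7 and 4.71 FPKM in control mice. Tchhl1 had 1.54, 65.3, 8.49 and 1.35 FPKM in knockout mice and 0.13, 4.11, 3.92 and 1.11 FPKM in control mice, and Crnn had 1.78, 68.2, 11.8 and 1.91 FPKM against 0.40, 6.89, 6.62 and 1.22 FPKM. In all 3 genes knockout mouse 2 was the highest and knockout mouse 3 the next, while knockout mice 1 and 4 lay within the range of the control mice. The log2 fold changes were 2.64 for Tchh (SE 1.08, edgeR adjusted p = 0.498), 2.78 for Tchhl1 (SE 1.35) and 2.19 for Crnn (SE 1.27). Without knockout mouse 2 they were 0.67, 0.45 and 0.17, and with the replicate block they were 1.64, 1.94 and 1.56, all at an unadjusted p under 0.05 with an edgeR adjusted p of 0.405. With the length trend removed they were 2.01, 2.98 and 2.42, and only Tchhl1 had an unadjusted p under 0.05 in edgeR's test. For these genes, higher RNA per cell and more cells of the kind that makes them cannot be told apart in whole skin, and the same holds for every gene described here.

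Inner root sheath keratins had nearly the same order of mice as Tchh, with control mice 2 and 3 in exchanged places for Krt71. Krt71 had 10.0, 530, 76.9 and 16.7 FPKM in knockout mice and 3.75, 20.6, 27.9 and 7.22 FPKM in control mice. Krt25 reached 355 FPKM and Krt27 reached 334 FPKM in knockout mouse 2. Krt28 and Krt73, which had the smallest p-values of the list, had log2 fold changes of 2.69 (SE 0.94) and 3.87 (SE 1.43). The sum of the 7 keratins of this list was 28.7, 1497, 197 and 41.8 FPKM in knockout mice and 10.7 to 79.8 FPKM in control mice. Of the 7, 5 were higher in knockout mice at an unadjusted p under 0.05, or 7 with the length trend removed. Correlations of Tchh, Tchhl1 and Crnn with these keratins had a median of 0.98 over 21 pairs and 8 mice, and of 0.96 without knockout mouse 2. The hair shaft list had sums of 12.7 to 383 FPKM in knockout mice and 5.26 to 91.0 FPKM in control mice, again highest in knockout mouse 2, and 0 of its 9 genes had an unadjusted p under 0.05 in edgeR's test. Its most abundant genes were Krt35, Krt33a and Krt33b, with log2 fold changes of 2.75, 1.18 and 0.61. Of the oral mucosa list, Krt24 was the most abundant, with means of 2.79 ± 0.43 FPKM in knockout mice and 3.67 ± 0.75 FPKM in control mice (SD, n = 4 each). It was the 1 gene of the list that was lower at an unadjusted p under 0.05 (log2 fold change -0.57, edgeR adjusted p = 0.498), and its log2 fold change was -0.39 with the length trend removed. The list then had 0 genes lower and 1 higher (Krt13, log2 fold change 0.87) at an unadjusted p under 0.05, with an edgeR adjusted p of 0.533. The keratins that define this epithelium were near 0. Krt4 had means of 0.52 and 0.85 FPKM, Krt13 of 0.44 and 0.28 FPKM and Krt76 of 0.03 and 0.02 FPKM in knockout and control mice. The sum of the list was 3.25 to 4.39 FPKM in knockout mice and 3.33 to 5.41 FPKM in control mice, with 3.94 FPKM in knockout mouse 2, where Crnn was highest. How much of the difference in Tchh, Tchhl1 and Crnn comes with the amount of hair follicle in the samples was not tested.

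**Figure D5:**
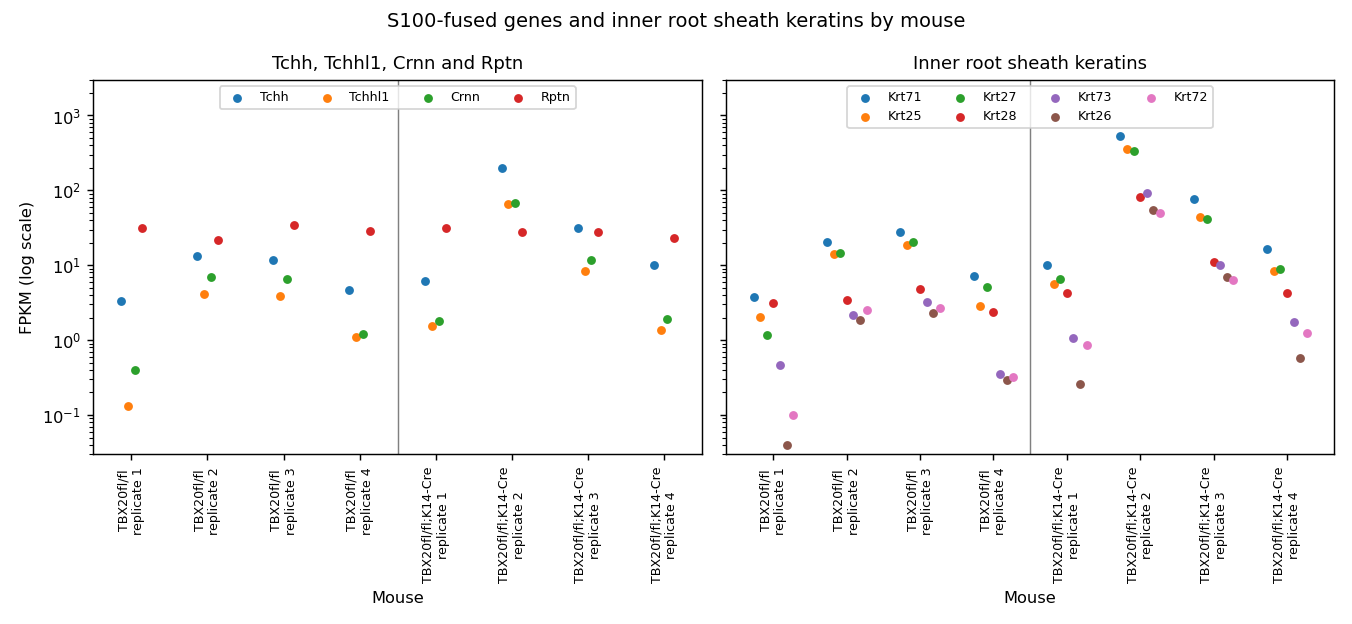
FPKM (log scale) in each mouse of Tchh, Tchhl1, Crnn and Rptn on the left and of the 7 inner root sheath keratins on the right, with a point for each gene and a line between control and knockout mice. Tchh, Tchhl1 and Crnn rise and fall between mice with the keratins and are highest in knockout mouse 2, whereas Rptn stays between 21.9 and 34.0 FPKM.

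Filaggrin (Flg) was the only gene of the 32 that was higher without overlap. It had 12.2, 13.6, 12.0 and 9.53 FPKM in knockout mice and 9.09, 1.89, 4.44 and 8.78 FPKM in control mice, a log2 fold change of 0.88 (SE 0.36, edgeR adjusted p = 0.498). Knockout mouse 4 and control mice 1 and 4 lay close together, and control mice 2 and 3 were low. Flg has the longest transcript of the 32 (13632 bases implied), and transcripts of the length of Flg, Flg2, Hrnr and Rptn lay at -1.33 on the log2 scale in control mouse 2 by the trend over all genes, at -0.12 in control mouse 3 and at 0.13 to 0.32 in the others. With the length trend removed the log2 fold change of Flg was 0.39 (SE 0.20, edgeR adjusted p = 0.533), and without control mouse 2 it was 0.63.

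The other long S100-fused genes of the epidermis had smaller estimates than Flg, although Flg2 and Hrnr had the same order of control mice, highest in control mouse 1 and lowest in control mouse 2. Whether they differed from Flg was not tested. Filaggrin-2 (Flg2), which is also processed in the surface layer, was the most abundant of them, with 160, 102, 141 and 133 FPKM in knockout mice and 143, 58.8, 85.6 and 108 FPKM in control mice. Hornerin (Hrnr) had 51.0, 43.7, 47.4 and 38.5 FPKM in knockout mice and 68.1, 21.2, 41.0 and 52.4 FPKM in control mice, where control mice gave both the highest and the lowest value. Repetin (Rptn) had means of 27.5 ± 3.33 FPKM (SD, n = 4) in knockout mice and 29.0 ± 5.29 FPKM (SD, n = 4) in control mice. The log2 fold changes were 0.32 for Flg2, -0.12 for Hrnr and -0.23 for Rptn. With the length trend removed they were -0.19 for Flg2, -0.67 for Hrnr (SE 0.21, edgeR adjusted p = 0.533) and -0.46 for Rptn (SE 0.18, edgeR adjusted p = 0.533), so that the direction of Flg2 depended on the scaling and Hrnr and Rptn moved further from 0. Over the 7 S100-fused genes the summed FPKM was 264, 521, 280 and 217 in knockout mice and 256, 128, 187 and 204 in control mice, a ratio of means of 1.65, of which Tchh, Tchhl1 and Crnn made up 334 FPKM in knockout mouse 2. Without that trio the sums were 187 to 254 FPKM in knockout mice and 104 to 252 FPKM in control mice.

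Loricrin (Lor), the main component of the envelope by mass, had 417, 318, 378 and 410 FPKM in knockout mice and 383, 295, 336 and 299 FPKM in control mice. The groups overlapped, and the log2 fold change was 0.046 (SE 0.18, edgeR adjusted p = 0.890), which was -0.014 without knockout mouse 1 and -0.037 without control mouse 4. Involucrin (Ivl), an early scaffold of the envelope, had 88.9, 100, 87.8 and 72.1 FPKM in knockout mice and 82.8, 96.1, 90.5 and 102 FPKM in control mice, a log2 fold change of -0.28 (SE 0.19, edgeR adjusted p = 0.512), which was -0.12 without control mouse 2 and -0.10 with the length trend removed. Lor was lowest in control mouse 2 and Ivl was highest in control mouse 4, each by a small margin. Crct1 (cysteine-rich C-terminal 1) has a short transcript and neighbours Lce1m. It had 791, 765, 630 and 600 FPKM in knockout mice and 775, 1464, 914 and 530 FPKM in control mice, and its log2 fold change of -0.66 became 0.018 with the length trend removed. Kprp, a keratinocyte proline-rich protein, had a log2 fold change of 0.12 (SE 0.18), with means of 74.1 ± 11.5 and 62.1 ± 17.2 FPKM (SD, n = 4 each) in knockout and control mice.

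Other genes of cornification were read as a list of 30 cornification partners, of which 29 were tested. At an unadjusted p under 0.05, 2 were lower and 3 were higher in knockout mice, and the median log2 fold change was -0.12 (0.031 with the length trend removed). With that trend removed 2 were lower and 4 were higher at that p. The most abundant were Krtdap, Dmkn and Sbsn, which are secreted by differentiating keratinocytes, with log2 fold changes of -0.89, -0.37 and -0.24, which were -0.086, -0.044 and 0.042 with the length trend removed. Csta1, which encodes a cysteine protease inhibitor of the envelope, had means of 35.5 ± 4.50 FPKM (SD, n = 4) in knockout mice and 58.6 ± 22.5 FPKM (SD, n = 4) in control mice. Padi3 and Padi1 encode enzymes that convert arginine to citrulline in trichohyalin and filaggrin. Padi3 had 0.65, 21.5, 2.99 and 0.67 FPKM in knockout mice and 0.27, 0.62, 1.27 and 0.31 FPKM in control mice, in the same order of mice as Tchh among the knockout mice. Padi1 had 5.52 FPKM in knockout mouse 2 and 0.08 to 0.70 FPKM in the others.

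Of 20 regulators known to act on the epidermal differentiation complex, 0 were lower and 3 were higher in knockout mice at an unadjusted p under 0.05 in edgeR's test (0 after adjustment), with a median log2 fold change of 0.25, or 0.12 with the length trend removed. The 3 were the transcription factors Tfap2a (log2 fold change 0.52, SE 0.19), Zfp750 (0.49, SE 0.21) and Gata3 (0.41, SE 0.17). Their groups did not overlap in FPKM. Over all genes tested, 2.45% were higher at an unadjusted p under 0.05 in edgeR's test, and 5.19% were higher without overlap. The 3 genes were lowest in control mouse 2, at 3.24, 7.0 and 7.22 FPKM. With the length trend removed their log2 fold changes were 0.42, 0.43 and 0.34. The list then had 4 genes higher at that p, where the background was 3.41%. The most abundant regulators were Cebpa, Klf4 and Junb, with log2 fold changes of 0.12, 0.24 and -0.33.

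The marker lists of the skin showed what else moved between the mice. Basal keratinocyte markers summed to 2537 to 2933 FPKM in knockout mice and 2389 to 3154 FPKM in control mice, and 0 of 7 had an unadjusted p under 0.05 in edgeR's test. Krt14, Krt5 and Krt15 were the most abundant, with log2 fold changes of -0.30, 0.12 and -0.33, while the median of the 7 was 0.26 (-0.072 with the length trend removed). Suprabasal markers, led by Krtdap, Dmkn and Krt10, summed to 5197 to 6892 FPKM in knockout mice and 6526 to 10350 FPKM in control mice, with the highest sum in control mouse 2, and 1 of 6 (Krtdap) was lower at an unadjusted p under 0.05, but 0 with the length trend removed in edgeR's test. Neutrophil markers summed to 220 to 424 FPKM in knockout mice and 444 to 1138 FPKM in control mice without overlap, highest in control mice 2 and 4. Of the 7, 4 were lower at an unadjusted p under 0.05 (S100a8, S100a9, Cxcr2 and Il1r2, with log2 fold changes of -2.10, -2.09, -0.96 and -0.78). With the length trend removed these were -1.33, -1.35, -1.01 and -0.39, and 5 of the 7 were lower at that p. Skeletal muscle markers, led by Acta1, Mylpf and Tnnt3, summed to 11420 to 18430 FPKM in knockout mice and 15050 to 22680 FPKM in control mice, and 1 of 10 (Pvalb, -0.76) was lower, which was -0.21 with the length trend removed. Adipocyte markers, led by Cfd, Adipoq and Cidec, summed to 1858 to 2461 FPKM against 1969 to 3131 FPKM, with 0 of 6 at an unadjusted p under 0.05 in edgeR's test. With the length trend removed 1 of the 6 (Adipoq, 0.35) was higher at that p. Sebaceous gland markers, led by Awat1, Elovl3 and Fa2h, summed to 424 to 861 FPKM against 446 to 739 FPKM, with a median log2 fold change of -0.016. Awat1 (-0.59) and Elovl3 (-0.58) had negative estimates, and 1 of 6 (Scd3, 1.14) was higher at an unadjusted p under 0.05. The epidermal markers were present at high levels in all 8 mice, with muscle of the cheek included in the samples, and the part of these other tissues in the differences among the 32 genes was not tested.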

How the data were processed

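Whole cheek skin was collected after BNP injection (4 TBX20fl/fl;K14-Cre and 4 TBX20fl/fl mice, a library each), and the authors sequenced it as single-end reads of 50 bases, filtered with SOAPnuke and aligned with HISAT. The authors deposited estimated counts (expected counts, 69% of those above 0 not within 1e-06 of a whole number) for 18901 genes. The program that made them is not given in the sources used here. The authors also deposited FPKM values, TPM values and counts divided by a size factor, a normalized signal. TPM and the normalized signal were not used. Columns with the authors' log2 fold changes, p-values and q-values, under names that refer to DESeq2, and columns of group means were not used.

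Counts were rounded, and the 17124 genes with 10 counts or more in total entered the tests. Groups were compared with edgeR 4.0.16 (TMM, quasi-likelihood) in R 4.3.3, with Benjamini-Hochberg adjustment over all genes tested and a threshold of 0.05. No test was run over the 32 genes as a set. Correlations and distances from other mice used log2 CPM with a prior count of 2. The length trend was fitted in each mouse on genes averaging 50 counts or more, with lengths implied by counts and FPKM, and entered edgeR as an offset. DESeq2 1.42.0 and limma 3.58.1 on log2(FPKM + 1), for genes averaging 0.1 FPKM or more, were alternatives, as were other filters, covariates, a replicate block and leaving out each mouse. The fits were tested on simulated counts. Summaries used Python 3.11.15.

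The labels do not say what a shared replicate number means. Deviations from the group means correlated at 0.108 to 0.323 in the 4 pairs of mice with the same number, all over 0.1. Pairs with different numbers reached 0.32, and knockout mouse 4 correlated more with control mouse 1 than with control mouse 4. The fit reported is unpaired, and a fit with the replicate number as a block was run beside it.

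The genes, the gene lists and the tests were chosen with earlier results of these data known. Values in each mouse are given for the 3 genes of each role with the highest mean FPKM, for genes whose groups did not overlap and for genes at an unadjusted p under 0.05. From each list, the 3 most abundant genes and up to 4 genes at an unadjusted p under 0.05 are named. Tchhl1, Crnn, Lce3d and Sprr1b were added after their values were seen. Counts are whole-library totals of 16056282 to 19880654, and FPKM from few counts is imprecise.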

Additional observations from a re-analysis of the deposited data

Results flagged for a closer look

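A mouse was marked when its gap to the nearest mouse of its group took up more of the range of that group of 4 than Dixon's critical value allows. Of 78 groups of FPKM values examined (the 32 genes and 7 sums, in each genotype), 16 were marked, and chance marks about 1 in 20, or 3.9 here. The genes of a subfamily vary together, so these marks are not independent.

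Control mouse 4 was marked as high in Lce3a (13.3 FPKM), Lce3b (19.6 FPKM), Lce3d (40.0 FPKM), Lce3e (24.1 FPKM), Lce3f (17.8 FPKM) and the Lce3 sum (152 FPKM, others 10.7 to 19.6). Knockout mouse 2 was marked as high in Crnn (68.2 FPKM), Tchh (201 FPKM), Tchhl1 (65.3 FPKM) and their sum (334 FPKM, others 9.55 to 51.4), and as low in Kprp (57.1 FPKM, others 77.4 to 81.2). Control mouse 2 was marked as high in Lce1h (57.2 FPKM), Lce1j (148 FPKM) and Lce1k (56.5 FPKM). Knockout mouse 3 was marked as high in Lce3c (10.5 FPKM) and the Lce3 sum (25.3 FPKM, others 8.05 to 10.3). Causes were not tested.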

How the results depend on the processing

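Differences under an adjusted p of 0.05 were called by DESeq2 alone, for 10 genes of which 0 were among the 32. All other alternatives called 0, the leave-one-out fits included. The number of all genes at an unadjusted p under 0.05 (1431) was 1046 with limma on log2(FPKM + 1), 1709 with the block in that fit, 926 with limma on log2(FPKM + 0.1), 590 with a skeletal muscle covariate, 826 with a suprabasal keratinocyte covariate, and 823 (without knockout mouse 3) to 2405 (without control mouse 1) when a mouse was left out. Of the 32 genes, 11 had an unadjusted p under 0.05. This number was 6 with limma on log2(FPKM + 1), with or without the filter, and on log2(FPKM + 0.1), 12 with limma on log2(FPKM + 1) and the block, 5 with the length trend removed, also without control mouse 2, 1 with the skeletal muscle covariate, 4 with the suprabasal covariate, and 5 (without knockout mouse 2) to 15 (without control mouse 4) when a mouse was left out. The median log2 fold change of the 32 genes (-0.64) was -0.073 with the length trend removed, -0.05 with it removed and without control mouse 2, and -0.75 to -0.24 when a mouse was left out. Removing the trend without control mouse 2 and combining limma with the block were chosen after seeing the data. The ratios of summed FPKM (0.731 for the late cornified envelope family, 1.65 for the S100-fused genes) moved by less than the spread between mice: leaving out a mouse gave 0.667 to 0.862 and 1.31 to 1.85, scaling FPKM to the same sum gave 0.857 and 1.80, and TMM-scaled CPM gave 0.621 and 1.35.

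In the fit with the replicate block, 9 of the 32 genes had an unadjusted p under 0.05, with a median log2 fold change of -0.51. With the block and the length trend removed there were 7 (3 lower and 4 higher), with a median of -0.069, where 1802 of all 17124 genes passed. The block changed no call at an adjusted p under 0.05.

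Of 703 single-gene values under the alternatives, 32 changed sign, in 14 genes, and 0 of the 700 with an adjusted p crossed the threshold. The other 3 (Lce3b, Lce3e and Lce3f in DESeq2) had no adjusted p. With the length trend removed, the values that changed sign were 0.058 for Lce6a, 0.0051 for Lce1a1, 0.017 for Lce1a2, 0.068 for Lce1c, 0.017 for Lce1d, 0.035 for Lce1f, 0.010 for Lce1l, 0.018 for Crct1 and -0.19 for Flg2. With the block in addition they were 0.053 for Lce6a, 0.0078 for Lce1a1, 0.029 for Lce1a2, 0.066 for Lce1c, 0.025 for Lce1d, 0.038 for Lce1f, 0.012 for Lce1l, 0.035 for Crct1 and -0.13 for Flg2. Without control mouse 2 and with the trend removed they were 0.13 for Lce6a, 0.042 for Lce1a2, 0.037 for Lce1c, 0.018 for Lce1i and 0.081 for Crct1. Hrnr was 0.092 with limma on log2(FPKM + 1), with or without the filter and with the block, and 0.097 on log2(FPKM + 0.1). Leaving out a mouse gave -0.037 to 0.13 for Lor, -2.54 to 0.074 for Lce3a, -2.17 to 0.39 for Lce3f and -0.29 to 0.10 for Hrnr. The causes of these changes were not tested.

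FPKM and fold changes of the Lce3 genes rest on 1 to 107 counts outside control mouse 4, which limits what can be read from them. The design gives 4 mice a group, and the largest differences among these genes shrank without control mouse 4 (Lce3) or knockout mouse 2 (Tchh, Tchhl1 and Crnn).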
